A study of Mus musculus with 7 samples.

Results

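Proteasome genes were followed in growing mouse oocytes that lacked Mfn1, which encodes mitofusin 1, a GTPase of the outer mitochondrial membrane that drives fusion of mitochondria. Members were chosen by gene symbol alone, as genes of the families Psma, Psmb, Psmc, Psmd, Psme, Psmf and Psmg with a number and, in 1 case, a closing letter. This gave 48 of the 22877 genes of the table. Psmb9 was not analysed here.

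RNA came from oocytes isolated out of secondary follicles of 8-week-old C57BL/6J mice, with 5 oocytes pooled per library. There were 4 wild-type (WT) libraries and 3 libraries from mice in which floxed Mfn1 alleles were deleted by Cre (Mfn1-/-). Cre was driven by the Zp3 promoter, which is active in growing oocytes from the primary follicle stage and not in granulosa cells. Full-length complementary DNA was made and amplified by the Smart-Seq2 method, which does not keep the strand of the RNA. The labels do not tie libraries to animals.

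For each gene the values used were the authors' mean of normalized counts in each genotype. A mean has no spread and no depth, so no standard deviation, interval or test was computed from these values, and each difference below is given without a replicate check. The log2 fold change was the log2 ratio of the Mfn1-/- mean to the WT mean after 0.1 was added to both, so that changes of weakly expressed genes are shrunk. A gene was counted as changed when it was past 2-fold on this scale. Because each library is a pool, fewer oocytes with a transcript and less transcript per oocyte cannot be told apart.

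Mfn1 itself had a mean of 0.0577 in Mfn1-/- oocytes and 0.616 in WT oocytes. The libraries thus carried the direction that their genotype labels give, with a log2 fold change of -2.18. Oocyte markers were abundant in both genotypes, where 15 of 16 had an overall mean of 1 or more and 0 were past 2-fold. Their summed level was 3760 in WT and 3745 in Mfn1-/- oocytes. Of the 16, 11 were higher and 5 lower in Mfn1-/- oocytes, and the median log2 fold change was 0.18. H1foo, the oocyte linker histone and the most abundant, was among the 5, with 1100.0 in WT and 813 in Mfn1-/- oocytes, and weighs most in the sums.

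Markers of other ovarian cells were low. The 13 granulosa cell markers in the table summed to 3.51 in WT and 3.23 in Mfn1-/- oocytes, and 0 of them were past 2-fold. Esr2, an estrogen receptor, was the most abundant of these by overall mean, with 1.86 in WT and 0.929 in Mfn1-/- oocytes. Of the 13, 4 had the higher mean in Mfn1-/- and 9 in WT oocytes, so the nearly equal sums hold opposite differences. Named after their values were seen, Inha, the inhibin alpha chain, had 0.954 in WT and 1.87 in Mfn1-/- oocytes. Hsd17b1, a steroid dehydrogenase, had 0.152 in WT and 0.0412 in Mfn1-/- oocytes. Without the 0.1 added, Foxl2 was past 2-fold with the higher mean in Mfn1-/- oocytes, at a ratio of 2.87. Cyp19a1, Hsd17b1 and Esr2 were then past 2-fold with the lower mean, at ratios of 0.438, 0.271 and 0.499. The 5 theca and stroma markers summed to 0.210 in each genotype, and Star, a cholesterol carrier of steroid-making cells, was the most abundant at 0.105 in WT and 0.0845 in Mfn1-/- oocytes. Of these 5 markers, 0 were past 2-fold, but all had means close to or below the 0.1 added, which shrinks their changes.

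The proteasome is the main protease for ubiquitin-tagged proteins in the cytosol and nucleus. Its 20S core is a barrel of stacked rings, with alpha subunits in the outer rings that gate entry and beta subunits in the inner rings that carry the cutting sites. A 19S regulatory particle caps the barrel, where its base unfolds substrates with ATPases and its lid removes ubiquitin. In oocytes, destruction of cyclin B and securin by this machinery is needed for the meiotic divisions, and maternal stores of the particle serve the early embryo.

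Proteasome genes had on the whole slightly higher means in Mfn1-/- than in WT oocytes, as did other expressed genes. The median log2 fold change of the 48 members was 0.19, and that of the 39 members with an overall mean of 1 or more was 0.18. The median of the 6226 genes with an overall mean of 1 or more was 0.16, called the general shift below, and that of all 22877 genes, most of them with lower means, was 0.04. At an overall mean of 10 or more the order was the other way, with a median of 0.10 for 21 members and 0.19 for 1849 genes. Of the members, 38 had the higher mean in Mfn1-/- oocytes and 10 in WT oocytes, where 56.7% of all genes were higher in Mfn1-/- oocytes. Of the 39 members with a mean of 1 or more, 32 (82.1%) were higher, against 65.4% of genes with such a mean. After subtraction of the general shift the split of the 48 members became 26 higher and 22 lower. After scaling both genotypes to the same sum it became 27 and 21. Of genes with a mean of 1 or more, 50% and 53.5% were higher in Mfn1-/- oocytes under these scalings.

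Members past 2-fold numbered 2, Psmb11 and Psme2, both higher in Mfn1-/- oocytes. Over all genes 4.87% were past 2-fold with a higher mean in Mfn1-/- oocytes, and over genes with a mean of 1 or more 5.44%. No member, 0 of 48, was past 2-fold with a lower mean, against 2.75% of all genes and 3.24% of those with a mean of 1 or more. With the general shift subtracted, 0 members were past 2-fold in either direction, but the share of all genes on that scale was not computed. At 1.5-fold, 7 members were higher in Mfn1-/- oocytes, against 12.4% of all genes. Of these members 3 had a mean of 1 or more, against 15.5% of genes with such a mean that were past 1.5-fold with the higher mean in Mfn1-/- oocytes. In the other direction 0 members were past 1.5-fold. This was so for 1575 of the 22877 genes and for 480 of the 6226 genes with a mean of 1 or more. Of the 48 members, 39 had a mean of 1 or more and 9 were below it.

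**Figure D1:**
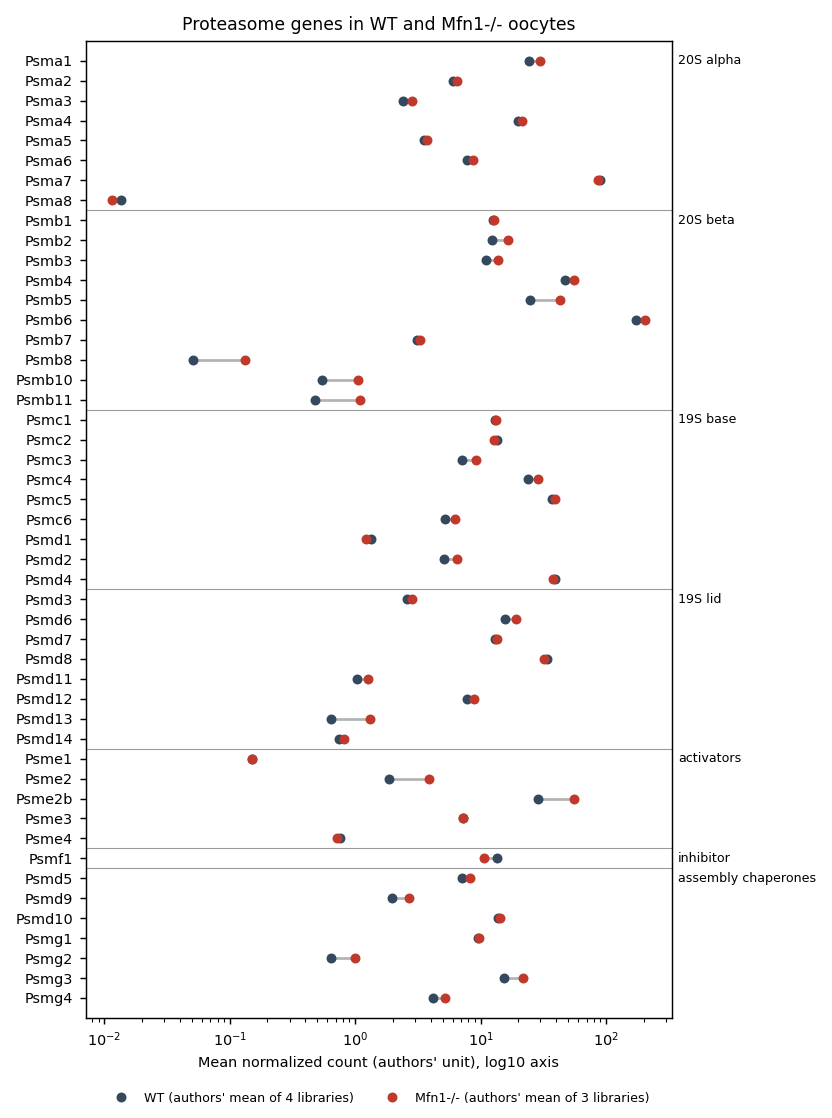
Authors' mean normalized count of each proteasome gene in WT (dark) and Mfn1-/- (red) oocytes on a log10 axis, grouped by role, with a line joining the genotypes. Most pairs lie close together, and Psmb5, Psmb8, Psmb10, Psmb11, Psmd13, Psme2 and Psme2b show the widest gaps, all with the higher mean in Mfn1-/- oocytes.

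As a body, the members summed to 765 in WT and 889 in Mfn1-/- oocytes. That was 0.623% of the table's sum in Mfn1-/- and 0.588% in WT oocytes. The table's own sum was 1.10 times as high in Mfn1-/- as in WT oocytes, and the ratio for the members was 1.16. Without Psmb6, the most abundant member, the ratio of the summed levels was 1.16 as well. Psme2b, with 28.7 in WT and 55.6 in Mfn1-/- oocytes, and Psmb5, with 25 and 43.2, also weigh in these sums. Reads of both can fit a copy, as given below, and the ratio without them was not computed. Of the 48 members, 10 had the lower mean in Mfn1-/- oocytes.

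The middle of the members' distribution, from the lower to the upper quartile, ran from 0.03 to 0.35 in log2 fold change. For genes with a mean of 1 or more the quartiles were -0.12 and 0.42. The distance between the quartiles was 0.31 for the members and 0.54 for those genes. For the 39 members with a mean of 1 or more it was 0.26. It was 0.20 for 83 cytosolic ribosomal protein genes and 0.31 for the 9 genes of the CCT chaperonin. The log2 fold changes of the members ran from -0.35 to 1.04.

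Levels of different genes were set side by side with caution, since the scale of the normalized counts was not given in the sources used here. Genes listed at the lowest value, 0.01, in Mfn1-/- oocytes had WT means that became smaller with exon length. When these were split by exon length into 4 bins of equal size, the bin of the shortest, with a median exon length of 578 bases, had a median WT mean of 0.0783. The bin of the longest, with a median exon length of 5062 bases, had one of 0.0129. This is what values divided by gene length would give, and levels below are read as levels per length on that ground alone.

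The alpha ring genes were nearly equal in the genotypes, with a median log2 fold change of 0.11 over 8 genes. Psma7, the most abundant alpha gene, had a mean of 88.9 in WT and 86.4 in Mfn1-/- oocytes. Psma1, with the highest log2 fold change of the ring at 0.29, had 24.4 in WT and 29.9 in Mfn1-/- oocytes. Psma8, the alpha subunit of the testis, stood just above the lowest value of the table, with 0.0137 in WT and 0.0116 in Mfn1-/- oocytes. With 0.1 added, the lowest log2 fold change of the ring was that of Psma7, at -0.04. Without it Psma8 was lower, at -0.24.

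Means were higher in Mfn1-/- oocytes for all 10 beta genes, as they were for 65.4% of genes with a mean of 1 or more. The median log2 fold change of the beta genes was 0.37. It includes Psmb8, Psmb10 and Psmb11, which had overall means below 1 and log2 fold changes of 0.62, 0.83 and 1.04. The median without them was not computed. Psmb1 and Psmb7 fell below 0 once the general shift was subtracted. Psmb1, a structural ring subunit with the smallest log2 fold change of the beta genes at 0.02, had 12.5 in WT and 12.7 in Mfn1-/- oocytes. Constitutive cutting sites are carried by Psmb5, Psmb6 and Psmb7, for chymotrypsin-like, caspase-like and trypsin-like cleavage. These are assembled together in each core, yet their genes differed in the comparison.

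Psmb5, the subunit that binds the drug bortezomib, had a mean of 25 in WT and 43.2 in Mfn1-/- oocytes, a ratio of 1.73. Psmb6, the most abundant member of all, had 174 in WT and 206.0 in Mfn1-/- oocytes, a ratio of 1.18. Psmb7 had 3.14 in WT and 3.28 in Mfn1-/- oocytes, a ratio of 1.04. Of genes with a mean of 1 or more, 91.1% had a lower log2 fold change than Psmb5, 59.1% than Psmb6 and 40.0% than Psmb7.

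Promoters were read for motifs because members of the complex are known to be induced together by the factor NRF1, encoded by Nfe2l1, through antioxidant response elements. RefSeq windows of 300 bases, from 250 before to 50 after the start (GRCm38.p6), were matched by symbol for 40 of the 48 members. The element TGACNNNGC, searched on both strands, was found in 6 of the 40 members (15.0%), which were Psmb5, Psmb6, Psmc6, Psmd9, Psmd12 and Psme4. Of all 32851 windows 12.4% held it, of the 27025 genes with a window 14.0%, and of the 3850 genes with a mean of 1 or more and a window 17.0% did. The median log2 fold change was 0.24 in the 6 members with a match and 0.19 in the 34 without. For genes with a mean of 1 or more these medians were 0.13 and 0.15.

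Another motif, the CCAAT box, was searched on both strands as a common promoter element, and neither motif contains the other. It was found in 13 of the 40 members (32.5%), in 37.4% of all windows, in 41.1% of all genes with a window and in 45.2% of those with a mean of 1 or more. Members with a CCAAT box had a median log2 fold change of 0.11 and those without it 0.25. For genes with a mean of 1 or more these were 0.14 and 0.16, and the difference in the members was not tested. A match is a string of letters and does not show binding. The windows of Psmb5 and Psmb6 are shown because both hold a TGACNNNGC match while their values differed as above. Psmb5 lies on the minus strand (chr14:54617946-54618245) and Psmb6 on the plus strand (chr11:70525107-70525406). The match is in capitals.
Psmb5: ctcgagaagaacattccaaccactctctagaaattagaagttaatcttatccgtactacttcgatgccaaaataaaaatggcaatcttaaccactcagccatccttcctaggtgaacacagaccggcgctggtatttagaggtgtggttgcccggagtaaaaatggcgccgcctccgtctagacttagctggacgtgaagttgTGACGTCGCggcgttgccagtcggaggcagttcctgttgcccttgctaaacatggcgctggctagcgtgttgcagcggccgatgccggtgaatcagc
Psmb6: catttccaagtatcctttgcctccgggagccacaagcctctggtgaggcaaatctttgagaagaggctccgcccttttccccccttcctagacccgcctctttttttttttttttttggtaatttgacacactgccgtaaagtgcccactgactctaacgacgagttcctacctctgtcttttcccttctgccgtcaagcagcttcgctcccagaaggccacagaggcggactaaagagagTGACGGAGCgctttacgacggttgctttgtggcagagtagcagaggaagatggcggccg

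Immune and thymic beta subunits were all low. Psmb8, the immunoproteasome counterpart of Psmb5, had 0.0514 in WT and 0.132 in Mfn1-/- oocytes. Psmb10, the counterpart of Psmb7 in that particle, had 0.546 in WT and 1.05 in Mfn1-/- oocytes. Psmb11, the beta subunit known from cortical thymic epithelium, had 0.478 in WT and 1.09 in Mfn1-/- oocytes. Their log2 fold changes were 0.62, 0.83 and 1.04. With no pseudocount Psmb8 was past 2-fold as well, at 1.36, while the 0.1 added is close to its own mean.

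Psmb11 lies on chromosome 14 next to Psmb5, on the opposite strand, with 3410 bases between the genes (Psmb5 chr14:54614119-54618022, Psmb11 chr14:54621433-54629556). Its annotated exons share near-identical stretches with transcripts of 43 other genes, 26 of them in the table. Reads of such stretches can be given to any of these genes, so the value of Psmb11 is uncertain. Cdh24, the next gene on the other side, chosen after its value was seen, had 0.0518 in WT and 0.0203 in Mfn1-/- oocytes.

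Genes of the 19S base, which holds the ATPase ring and the largest scaffold subunits, had a median log2 fold change of 0.08 over 9 genes, below the general shift. Psmd4, a ubiquitin receptor and the most abundant base gene by overall mean, had 39.2 in WT and 37.5 in Mfn1-/- oocytes. Psmc3, an ATPase with the highest log2 fold change of the base at 0.37, had 7.15 in WT and 9.28 in Mfn1-/- oocytes. Psmd1, a scaffold that docks other ubiquitin receptors, had the lowest at -0.14, with 1.35 in WT and 1.22 in Mfn1-/- oocytes. Over the 17 base and lid genes together the median was 0.13, and with the general shift subtracted it became -0.03.

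Lid genes had a median log2 fold change of 0.15 over 8 genes, close to the general shift. Psmd8, the most abundant, had 33.7 in WT and 32.3 in Mfn1-/- oocytes, with the lowest log2 fold change of the lid at -0.06. Psmd13 stood apart from the other lid genes with 0.640 in WT and 1.31 in Mfn1-/- oocytes, a ratio of 2.05. On the log2 scale this was 0.93, and without a pseudocount it was past 2-fold.

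The gene of Psmd13 (chr7:140881968-140898643, plus strand) overlaps Sirt3, a mitochondrial deacetylase gene on the other strand, and shares 329 bases of transcript with it. Sirt3 was named after its value was seen, and had 0.482 in WT and 0.513 in Mfn1-/- oocytes. As the libraries keep no strand, reads from the shared bases cannot be told apart.

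**Figure D2:**
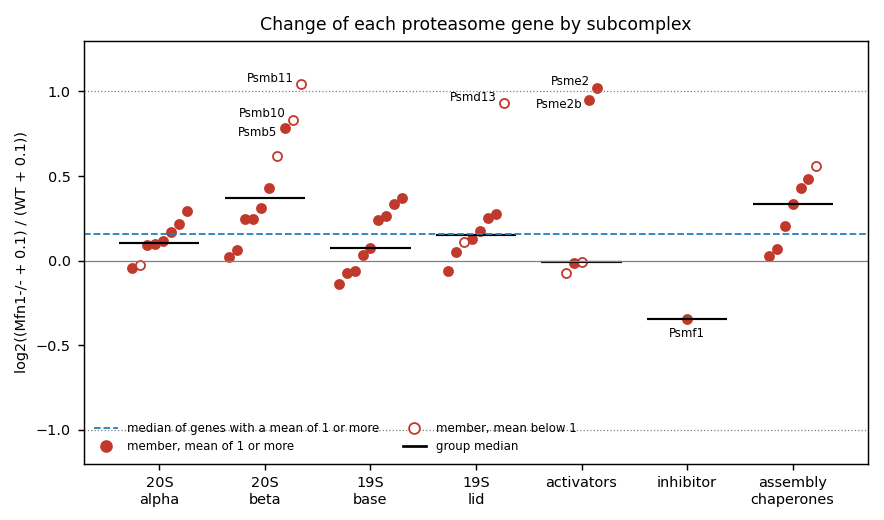
Log2 fold change of each member, Mfn1-/- over WT with 0.1 added, by subcomplex; open circles are members with a mean below 1, black bars are group medians, and the dashed line is the median of 0.16 over genes with a mean of 1 or more. Psmb11 and Psme2 lie above the dotted 2-fold line, and members between 0 and the dashed line change sign once that median is subtracted.

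Activators open the core without ATP. The genes Psme1 and Psme2 encode the alpha and beta chains of the interferon-inducible activator PA28, which form a mixed ring. Psme2 had 1.86 in WT and 3.88 in Mfn1-/- oocytes, with a log2 fold change of 1.02. Its partner Psme1 had 0.151 in WT and 0.150 in Mfn1-/- oocytes. So the values listed for the chains of a single ring differed both in level and in comparison. The value of Psme2 is uncertain, because single reads from much of its coding sequence fit Psme2b equally, as given below. The genes Psme1 and Psme2 lie 5911 bases apart on chromosome 14 (Psme1 chr14:55578123-55581529, Psme2 chr14:55587441-55591113).

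Psme2b is an intronless copy of Psme2 in a single annotated exon on chromosome 11 (chr11:48945354-48946190, minus strand), and it was the most abundant activator gene. It overlaps the annotated genes 9930111J21Rik1 and Gm12185 on the same strand, which were not analysed here. Its mean was 28.7 in WT and 55.6 in Mfn1-/- oocytes, with a log2 fold change of 0.95. The annotated coding sequences of Psme2 and Psme2b are each 717 bases long and differ at 5 positions, an identity of 99.3%. Of the 643 windows of 75 bases, the length of a read, 382 (59.4%) were identical in both, so a single read from these fits both genes equally. Reads were paired, so a pair fits both equally only if neither of its reads covers a difference. The share of such pairs was not computed, and untranslated parts were left out. Shown is the stretch of 150 bases, 394 to 543 of each coding sequence, that holds the most differences without a gap. The 3 differing positions are in capitals.
Psme2: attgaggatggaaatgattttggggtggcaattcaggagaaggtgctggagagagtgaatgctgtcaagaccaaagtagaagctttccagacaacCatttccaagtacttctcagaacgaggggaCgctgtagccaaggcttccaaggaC
Psme2b: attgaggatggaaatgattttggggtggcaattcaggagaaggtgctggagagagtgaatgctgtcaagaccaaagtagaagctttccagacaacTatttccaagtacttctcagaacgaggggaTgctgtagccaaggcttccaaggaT

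Summed, Psme2 and Psme2b had 30.6 in WT and 59.5 in Mfn1-/- oocytes, with a log2 fold change of 0.96. In this sum a read counts whichever of these genes it was given to, though not equally if values are per length. Near Psme2, and named after their values were seen, Emc9 had 0.0235 in WT and 0.254 in Mfn1-/- oocytes. Rnf31, a ubiquitin ligase subunit gene beside Psme2, had 0.155 in WT and 0.441 in Mfn1-/- oocytes.

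Other activators were close to equal in the genotypes. Psme3, the nuclear activator PA28 gamma, had 7.25 in WT and 7.18 in Mfn1-/- oocytes. Psme4, the activator PA200 known for a role in spermatogenesis, had 0.756 in WT and 0.713 in Mfn1-/- oocytes, the lowest log2 fold change of the activators at -0.07. The median over the 5 activator genes was -0.01, since 3 of the 5 lay just below 0.

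Psmf1, which encodes the proteasome inhibitor PI31, had the lowest log2 fold change of all members at -0.35. Its mean was 13.5 in WT and 10.6 in Mfn1-/- oocytes, a ratio of 0.785. Of genes with a mean of 1 or more, 13.3% had a lower log2 fold change.

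Assembly chaperones bind nascent rings and bases and leave before the particle is finished. Means were higher in Mfn1-/- oocytes for all 7, whose median log2 fold change was 0.33, but Psmd10 and Psmg1 fell below 0 once the general shift was subtracted. With that shift removed the median was 0.17. Of genes with a mean of 1 or more, 65.4% were higher in Mfn1-/- oocytes.

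Of those that build the core, Psmg3 was the most abundant chaperone, with 15.4 in WT and 21.6 in Mfn1-/- oocytes. Psmg4, its partner in a dimer, had 4.14 in WT and 5.24 in Mfn1-/- oocytes. The pair of chaperones that starts the alpha ring is made by Psmg1 and Psmg2. Psmg2 had the highest log2 fold change of the chaperones at 0.56, with 0.640 in WT and 0.989 in Mfn1-/- oocytes. Psmg1 had the lowest at 0.03, with 9.62 in WT and 9.80 in Mfn1-/- oocytes.

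Base assembly is guided by Psmd5, Psmd9 and Psmd10. Psmd9 had 1.96 in WT and 2.67 in Mfn1-/- oocytes. Psmd5 had 7.17 in WT and 8.28 in Mfn1-/- oocytes. Psmd10, also known as gankyrin, had 13.7 in WT and 14.4 in Mfn1-/- oocytes. None of the 3 was past 1.5-fold.

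Near-identical stretches touch many members. Some are shared with overlapping neighbours, or with many other genes, rather than with a copy such as Psme2b. Of the 48, 24 have 75 or more bases in common, at 95% identity or more, with a transcript of another gene, and 10 of these were pooled with copies in the table matched over at least 500 bases. Copies were taken only where annotated as pseudogenes or protein-coding genes, which left out the noncoding matches Gm26745 of Psmd9 and A730017L22Rik of Psmd11, and the pair of Psme2 and Psme2b was counted once, under Psme2. Apart from Psme2b the copies taken were processed pseudogenes, which are retrotransposed copies without introns, and they are described because of their values. In WT oocytes the copies summed to more than the member itself for 7 members and to less for 3.

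Psma3, an alpha ring gene, had 2.41 in WT and 2.82 in Mfn1-/- oocytes. Its 3 copies together had 209 in WT and 257 in Mfn1-/- oocytes, almost all from Gm13835, which is identical to it over 685 bases. Member and copies pooled gave a log2 fold change of 0.30, where Psma3 alone gave 0.22. Low values of Psma3 beside Psma7 therefore cannot be told apart from reads given to the copies.

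Psma5 had 3.51 in WT and 3.75 in Mfn1-/- oocytes. The 2 copies of it together had 112 in WT and 116.5 in Mfn1-/- oocytes. In the lid, Psmd11 had 1.04 in WT and 1.26 in Mfn1-/- oocytes, and its copy Gm14048 had 16.0 in WT and 18.7 in Mfn1-/- oocytes.

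For Psmb5 the copy Gm3375, matched over 796 bases at 98.9% identity, had nearly the same values as the gene itself, with 24.3 in WT and 45.6 in Mfn1-/- oocytes. Pooled, Psmb5 and Gm3375 had 49.3 in WT and 88.8 in Mfn1-/- oocytes, with a log2 fold change of 0.85. Psmb5 alone had a log2 fold change of 0.79. Reads of Psmb5 can be given to Gm3375 and the reverse, so the copy is no independent check of the Psmb5 difference. All 10 members and their summed copies had the higher mean in Mfn1-/- oocytes, though Psma2, Psma4, Psma5 and Psmc1, and the copies of Psma2 and Psma5, lay below the general shift. Processed pseudogenes made up 17.4% of the genes with a mean of 1 or more, and their median log2 fold change was 0.27.

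**Figure D3:**
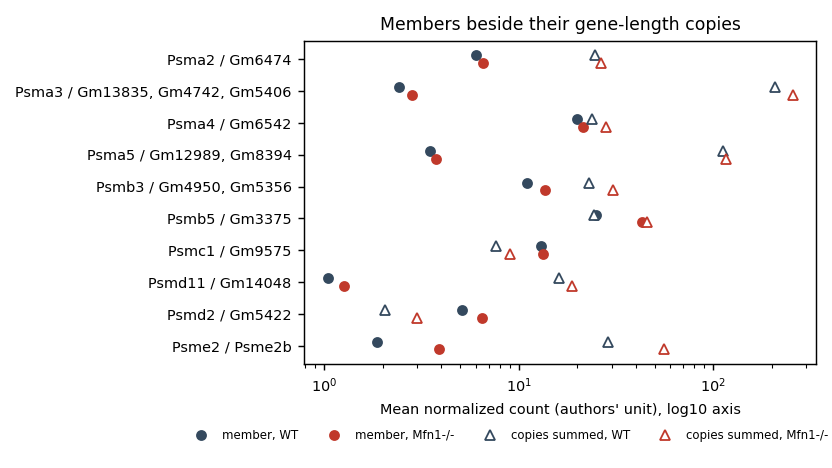
Means of the 10 members pooled with gene-length copies (circles) and of those copies summed (triangles), in WT (dark) and Mfn1-/- (red) oocytes on a log10 axis in the authors' normalized counts. For 7 of the 10 the copies lie above the member in WT oocytes, most of all for Psma3, Psma5, Psmd11 and Psme2.

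Partners of the proteasome were examined as a list of 31 genes, of which 30 were in the table. They had a median log2 fold change of 0.09, 18 were higher and 12 lower in Mfn1-/- oocytes, and 0 were past 2-fold. Their median log2 fold changes by role were -0.49 for the 2 transcription factors, 0.10 for further subunits and assembly factors, -0.02 for bound enzymes and scaffolds, -0.01 for shuttle factors, 0.18 for the p97 segregase and its cofactors and 0.24 for ubiquitin genes and activating enzymes. All of these medians except the last pair lay below the general shift of 0.16.

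Among the further subunits, Adrm1, a ubiquitin receptor of the base, was the most abundant with 17.2 in WT and 21.5 in Mfn1-/- oocytes. Pomp, the maturation factor of the core, had 8.37 in WT and 8.91 in Mfn1-/- oocytes. Usp14, a deubiquitinase that binds the base, was the most abundant of the bound proteins by overall mean, with 2.0 in WT and 2.66 in Mfn1-/- oocytes. Zfand5, a stress-linked activator of degradation, was the most abundant shuttle gene.

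Zfand5 had 11.1 in WT and 11.3 in Mfn1-/- oocytes. Vcp, which encodes the p97 ATPase that pulls tagged proteins from membranes and complexes, had 1.22 in WT and 1.87 in Mfn1-/- oocytes. Ubb, a polyubiquitin gene, was more abundant than any proteasome gene, with 4650.0 in WT and 5160.0 in Mfn1-/- oocytes.

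The transcription factors of proteasome genes were low in both genotypes. Nfe2l1 had 1.61 in WT and 1.58 in Mfn1-/- oocytes. Nfe2l2, which encodes NRF2 and acts on antioxidant genes as well, had 1.23 in WT and 0.590 in Mfn1-/- oocytes, a log2 fold change of -0.95. This was the lowest log2 fold change among the 30 partner genes, and it lay just inside 2-fold on this scale, with a ratio of the means of 0.480.

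**Figure D4:**
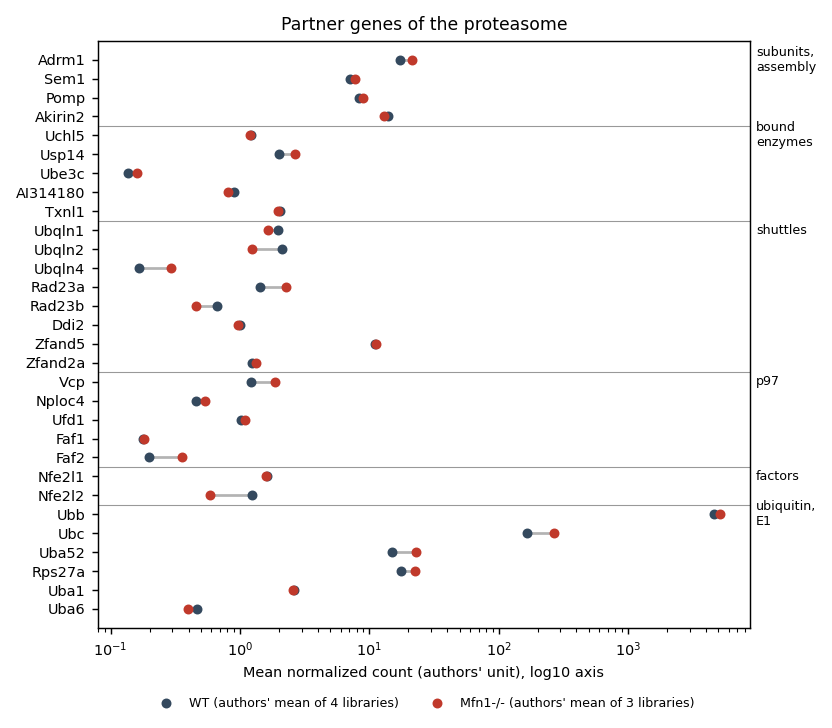
Authors' mean normalized count of the 30 partner genes in WT (dark) and Mfn1-/- (red) oocytes on a log10 axis, grouped by role. Nfe2l2 shows the widest gap with a lower mean in Mfn1-/- oocytes, and Ubb stands above all others.

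Antigen processing genes, mostly of class I, which share interferon control with Psmb8, Psmb10, Psme1 and Psme2 in somatic cells, were taken as a further list of 12 genes, of which 11 were in the table. Of these 11, 2 were past 2-fold, both higher in Mfn1-/- oocytes, and the median log2 fold change was 0.14. H2-K1, a class I heavy chain, had 2.80 in WT and 7.32 in Mfn1-/- oocytes. H2-D1, another class I heavy chain, had 0.0320 in WT and 0.862 in Mfn1-/- oocytes. Irf1, an interferon-responsive transcription factor, was the most abundant with 21.7 in WT and 25.5 in Mfn1-/- oocytes.

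Because these genes are abundant in leukocytes, immune cell markers are given beside them and beside Psmb8, Psmb10 and Psme2. Of 12 immune markers 8 were in the table, and they summed to 1.31 in WT and 8.68 in Mfn1-/- oocytes. The most abundant was Cd68, a lysosomal protein of macrophages, with 0.672 in WT and 7.58 in Mfn1-/- oocytes, the only marker past 2-fold with 0.1 added. Of the 8 markers, 5 had the higher mean in Mfn1-/- and 3 in WT oocytes, with Lyz2, Csf1r and Laptm5 lower in Mfn1-/- oocytes. The class II genes H2-Aa and H2-Ab1 and the leukocyte gene Laptm5 are given with values as examples of both directions, named after these were seen. H2-Aa had 0.458 in WT and 0.906 in Mfn1-/- oocytes. H2-Ab1 had 0.0145 in WT and 0.0758 in Mfn1-/- oocytes, a ratio of 5.23 between low means. Laptm5 had 0.0718 in WT and 0.0314 in Mfn1-/- oocytes. Lyz2, a macrophage lysozyme, was at the lowest value of 0.01 in Mfn1-/- oocytes and at 0.0203 in WT oocytes. Ptprc, Adgre1, Aif1 and Cd52 were not analysed here. The part of other cells in the values of Psmb8, Psmb10, Psme2 and the class I genes was not tested.

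Other large cytosolic complexes are given beside the proteasome genes, whose median log2 fold change was 0.19, mean 0.25 and ratio of summed levels 1.16. The 83 cytosolic ribosomal protein genes had a median of 0.27, a mean of 0.25 and a ratio of summed levels of 1.27, with 72 higher in Mfn1-/- oocytes. Of them 1 was past 2-fold, Rps4l, a relative of the small-subunit gene Rps4x and the most abundant of the list by overall mean, with 185 in WT and 389 in Mfn1-/- oocytes. The list summed to 2007 in WT and 2549 in Mfn1-/- oocytes, so Rps4l weighs heavily in the ratio of summed levels. That ratio was not computed without Rps4l. The 9 genes of the CCT chaperonin, which folds actin and tubulin, had a median of 0.26, a mean of 0.28 and a ratio of summed levels of 1.15, with 7 higher in Mfn1-/- oocytes and 0 past 2-fold. Cct5, the most abundant of these, had 49.2 in WT and 48.5 in Mfn1-/- oocytes. All of these medians lay above the general shift of 0.16, their order depends on the summary used, and the differences between the complexes were not tested.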

How the data were processed

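Per the labels, the authors trimmed reads with cutadapt, checked them with FastQC, mapped them to GRCm38 (mm10) using STAR and ran DESeq, with versions not given in the sources used here. The authors deposited, as signal, the mean normalized count of every gene in each genotype, never below 0.01, and a total over the 7 libraries, which equalled the weighted means within 1% for all 22877 genes. Its other columns hold the authors' p-value, false discovery rate, ratio and fold change, and were not used. There were 0 unused columns of single samples.

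Means were compared on a log2 scale with a pseudocount of 0.1. Overall means weight the genotypes by their libraries. Exons, overlaps and coding sequences came from GENCODE M21, and near-identical stretches were found with blastn 2.17.0. Python 3.11.15, numpy 2.4.6, pandas 2.3.3, Biopython 1.88 and matplotlib 3.10.9 were used. The counting step was tested on simulated data.

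Members and lists were chosen with earlier results of these data known. Genes named were Mfn1; members past 2-fold; in each subcomplex the most abundant and those with the highest and lowest log2 fold change; all members outside the standard particle; Psmb5, Psmb6 and Psmb7; and from other lists those past 2-fold, the most abundant, Nfe2l1, Nfe2l2 and Pomp. Others, among them the pseudogenes and the members described for their copies, were picked once values had been seen.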

Additional observations from a re-analysis of the deposited data

How the results depend on the processing

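No paired analysis was possible because the values are genotype means, and for the same reason leaving out each replicate and a replicate block were not run; depth is unknown. Members past 2-fold numbered 2. They numbered 4 with a pseudocount of 0.01 or with none, and 0 with a pseudocount of 1, after subtracting the median of genes with a mean of 1 or more, after scaling to the same sum, at a mean of 5 or more, or without members that share near-identical stretches. They numbered 1 at a mean of 1 or more or with copies pooled, the latter chosen after seeing the data, and 7 at 1.5-fold. The share of all genes was computed only at a mean of 1 or more and at 1.5-fold, as given above. Counts of members under the other settings therefore cannot be set against all genes. Members higher in Mfn1-/- oocytes numbered 38, but 26 with the median subtracted and 27 with equal sums. At a mean of 5 or more, where fewer genes are counted, they numbered 24. The median log2 fold change of members (0.19) was 0.15 with a pseudocount of 1, 0.032 with the median subtracted, 0.061 with equal sums, 0.18 at a mean of 1 or more or with copies pooled, 0.17 at a mean of 5 or more, 0.14 without shared stretches, and 0.25 as a mean. For 20S core genes (0.23) a pseudocount of 1 gave 0.16, none gave 0.24, and subtraction of the median 0.072. For 19S genes (0.13) a pseudocount of 1 gave 0.10 and subtraction of the median reversed the sign to -0.032. For activators (-0.01) a pseudocount of 1 gave -0.0013 and subtraction of the median -0.16. For chaperones (0.33) it was 0.34 with a pseudocount of 0.01 or none, 0.28 with 1 and 0.17 with the median subtracted. The cause of the changes was not tested, except that the median subtracted was itself 0.16.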
